A study of Saccharomyces cerevisiae with 16 samples.

Results

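CAT8, ADR1, SIP4 and HAP4 encode 4 transcription activators that switch on genes for the use of ethanol, glycerol and other carbon sources once glucose is gone. They were chosen by name for this role in Saccharomyces cerevisiae, and all 4 were found among the 12089 features of the table, which hold 5894 protein-coding genes. Strand-specific total RNA sequencing covered 16 libraries in 8 groups of 2 biological replicates. All strains are haploid with the genotype MATa his3Δ1 leu2Δ0 met15Δ0 ura3Δ0. Cultures in exponential growth in complete synthetic medium with glucose then spent 16 min either in medium with glycerol and ethanol in place of glucose (here called starved) or in glucose medium (here called glucose). The groups were wild type (strain YAM1) starved with cycloheximide, which blocks elongating ribosomes and was used at 100 µg/ml, wild type in glucose with cycloheximide, xrn1Δ::kanMX4 (strain YAM6) starved, xrn1Δ::kanMX4 in glucose, upf1Δ::kanMX4 (strain YAM202) starved, upf1Δ::kanMX4 in glucose, wild type starved with the solvent DMSO (mock), and wild type in glucose with DMSO. Xrn1 is the main cytoplasmic exonuclease that degrades decapped mRNA, and Upf1 is the RNA helicase on which nonsense-mediated decay depends. Each genotype is represented by 1 strain, no solvent is named for either mutant, and the time in cycloheximide is not stated. The columns of the 4 cycloheximide libraries carry another prefix than the other 12, so in every comparison of cycloheximide with mock the drug and that prefix cannot be told apart.

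As background, the kinase Snf1 is inhibited while glucose is plentiful and becomes active when it runs out. Active Snf1 relieves the repressor Mig1 and promotes the synthesis or activity of the activators. Cat8 and Sip4 are zinc cluster proteins that bind the carbon source-responsive element (CSRE) of genes for gluconeogenesis and the glyoxylate cycle. Adr1 is a zinc finger activator of genes for ethanol, glycerol and fatty acid use. Hap4 is the regulated, activating subunit of the Hap2/3/4/5 complex, whose other subunits bind the CCAAT box in front of genes for respiration.

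The members are single-exon genes, and no other RefSeq gene overlaps them in build R64. CAT8 (YMR280C) lies on the minus strand at chrXIII:827028-831329, ADR1 (YDR216W) on the plus strand at chrIV:895035-899006, SIP4 (YJL089W) on the plus strand at chrX:265926-268415, and HAP4 (YKL109W) on the plus strand at chrXI:232227-233891. Mig1 represses genes in glucose through a GC-rich site, so the 500 bases before each start codon were searched on both strands for the Mig1 core, which has the forms GCGGGG and GTGGGG and, with C as the first base, CCGGGG and CTGGGG. CAT8 held 2 matches and HAP4 held 1, while 22.9% of 5892 protein-coding windows of this length held at least 1. The sites are shown with their neighbouring bases, 5′ to 3′ on the strand of the gene, with the match in capitals (the HAP4 match is a core read on the other strand).
CAT8, chrXIII:831543-831572: atgcatggagcgGCGGGGctgatattttgt
CAT8, chrXIII:831527-831556: ggctgatattttGTGGGGtacgaaagcatg
HAP4, chrXI:231947-231976: cacctctctaaaCCCCAGttttatatcgta
The stress response element AGGGG occurred once among the members, in CAT8 (34.5% of windows held it), and does not overlap the Mig1 matches.
CAT8, chrXIII:831450-831479: ttttgttaaactCCCCTttaaacctgtgat
CCAAT boxes numbered 2 in CAT8, 1 in ADR1, 1 in HAP4 and 0 in SIP4 (63.0% of windows held at least 1). The CSRE consensus matched in none of the 4 windows and in 0.441% of all windows. A match here is a run of letters, not a bound site, and a window with no match says only that these letters are not in it.

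Values are the deposited densities in reads per nucleotide of the feature, so levels of different genes can be compared per length. The spike-in RNAs added to each library summed to 305 to 317 in every library, which ties each level to the mass of total RNA and not to the number of cells. In these cultures a change in all cells and a change in a part of them cannot be told apart. Estimated from the step between low values, the libraries held about 6.724e+06 to 3.3118e+07 reads on open reading frames (ORFs). SIP4 rested on about 111 to 997 reads per library, CAT8 on 230 to 6687, HAP4 on 811 to 12513 and ADR1 on 4599 to 19341. The deletions were visible in their own transcripts: UPF1 averaged 0.0147 ± 0.000746 reads per nucleotide in upf1 cells in glucose, against 0.599 ± 0.0235 in wild type, and XRN1 averaged 0.0775 ± 0.0117 in xrn1 cells in glucose, against 1.16 ± 0.0343 in wild type (SD, n = 2 each). MFA1 and STE2, genes of mating type a, averaged 2.54 and 2.72 in wild type in glucose, and the alpha pheromone gene MF(ALPHA)1 averaged 0.00214.

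The first comparison asked how the 4 mRNAs responded to 16 min without glucose in wild type. CAT8 and HAP4 rose most, ADR1 rose less, and SIP4, the rarest of them, did not pass the test. In the fit over 11599 features 3 of the 4 members passed, all upward, against 43.5% of features passed in either direction, of which 1162 rose and 3887 fell. The median protein-coding gene changed by -0.42 on the log2 scale. CAT8 stood at 0.253 and 0.192 reads per nucleotide in the starved libraries, against 0.0281 and 0.0317 in glucose. Both starved libraries were far above both glucose libraries, and the log2 change was 2.74 ± 0.16 (SE, limma adjusted p = 7.76e-08). HAP4 stood at 1.19 and 1.07 in starved cells, against 0.193 and 0.185 in glucose, with no overlap and a log2 change of 2.55 ± 0.14 (adjusted p = 4.07e-08). ADR1, already the most abundant of the 4 in glucose, stood at 0.953 and 0.860 in starved cells, against 0.508 and 0.519 in glucose. Its log2 change was 0.81 ± 0.12 (adjusted p = 9.07e-05), again with no overlap of the libraries. SIP4 stood at 0.0256 and 0.0213 in starved cells, against 0.0153 and 0.0187 in glucose. The libraries did not overlap, but the log2 change of 0.39 ± 0.20 did not pass (adjusted p = 0.129, 95% interval -0.03 to 0.82). Relative to the median protein-coding gene the differences were 3.16 for CAT8, 2.97 for HAP4, 1.23 for ADR1 and 0.81 for SIP4. With libraries scaled to protein-coding genes, SIP4 passed as well, at 0.75 (24.8% of features rose on that scale).

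**Figure D1:**
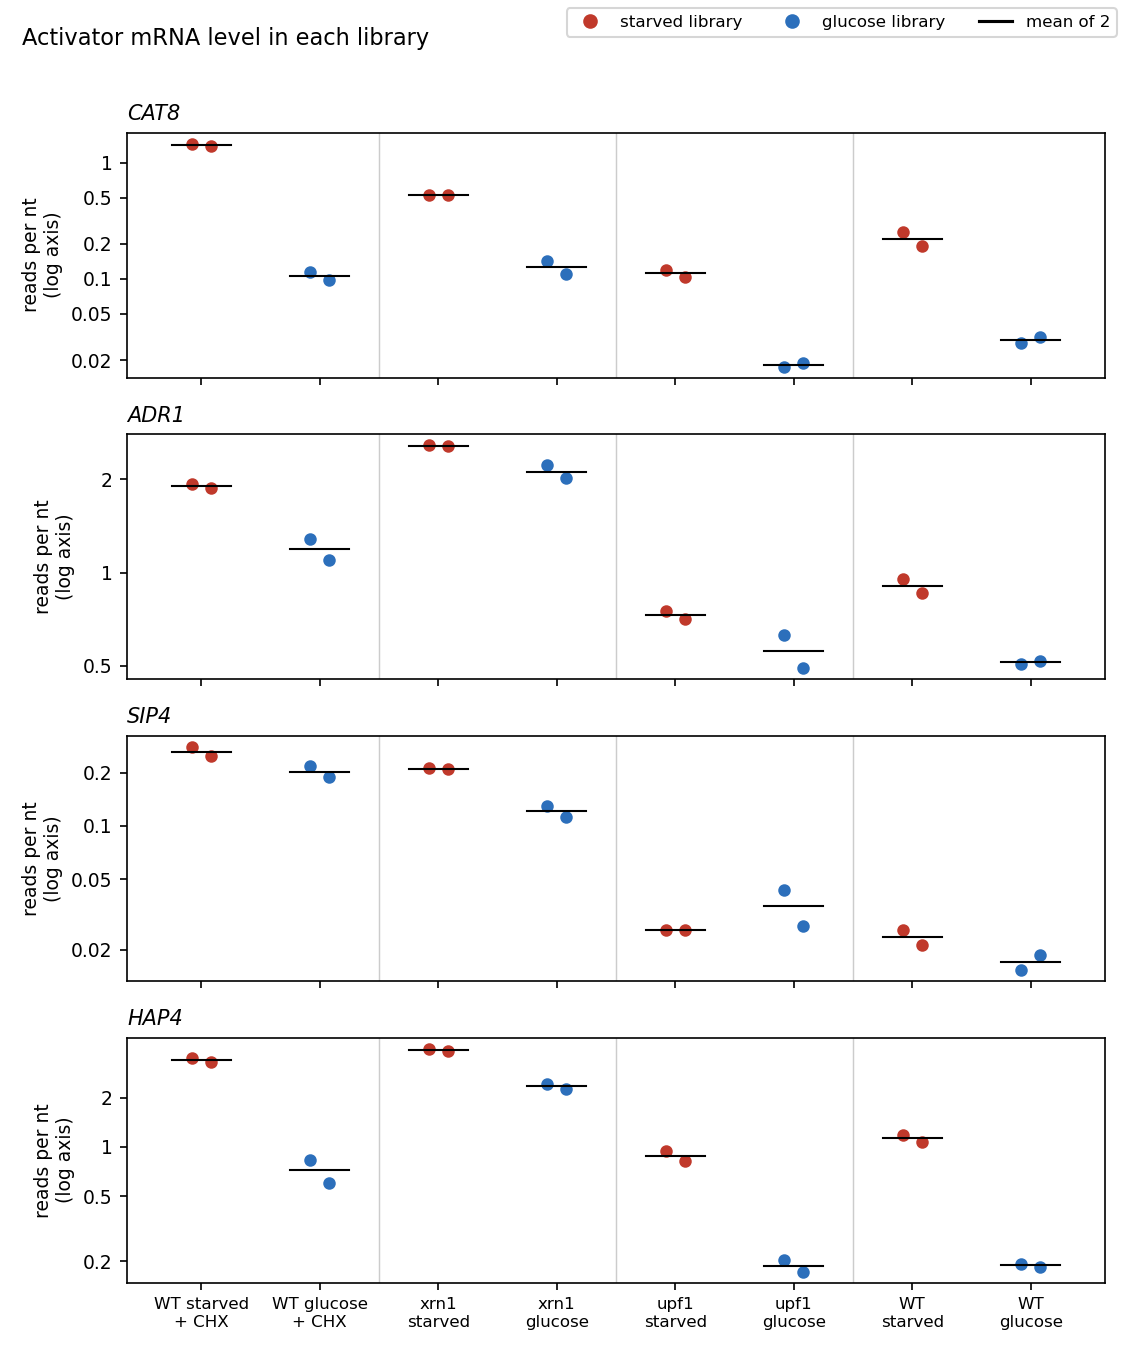
Level of each activator mRNA in reads per nucleotide (log axes) in the 16 libraries, with points for single libraries and bars for the mean of 2. CAT8 and HAP4 are higher in every starved library than in the glucose libraries of the same strain and drug, while ADR1 and SIP4 differ less between starved and glucose than between xrn1 or cycloheximide and mock wild type.

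The same step was then examined in cells with cycloheximide and in the deletion strains. CAT8 rose in all 4 settings and HAP4 too, while the size of their changes differed between settings. In wild type with cycloheximide CAT8 reached 1.46 and 1.39 reads per nucleotide in starved libraries, against 0.115 and 0.0980 in glucose. This log2 change of 3.70 ± 0.16 (adjusted p = 2.44e-10) was the largest among the 16 starvation changes of the members, and the libraries lay far apart. HAP4 stood at 3.5 and 3.31 in starved cells with the drug, against 0.836 and 0.605 in glucose with it (log2 change 2.25 ± 0.14). ADR1 stood at 1.92 and 1.87, against 1.29 and 1.10 (0.67 ± 0.12, adjusted p = 0.00014), without overlap. SIP4 stood at 0.279 and 0.247 in starved cells with the drug, against 0.217 and 0.189 in glucose with it, and its change of 0.37 ± 0.20 did not pass (adjusted p = 0.0966). It did pass when scaled to protein-coding genes (1.48) or snoRNAs (0.65) and with a pseudocount 10 times larger (0.32). Here 3 of 4 members rose, against 6.99% of all features, while 73.7% fell and the median protein-coding gene changed by -1.16.

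In xrn1 cells in glucose all 4 mRNAs already stood above wild type in glucose, as 90.6% of features did. CAT8 stood at 0.525 and 0.528 reads per nucleotide in starved xrn1 libraries, against 0.142 and 0.111 in xrn1 libraries in glucose (log2 change 2.04 ± 0.16, adjusted p = 6.42e-06). HAP4 stood at 3.97 and 3.84, against 2.43 and 2.27 (0.73 ± 0.14, adjusted p = 0.0102). The HAP4 libraries did not overlap, but the call was lost when any 1 of the 4 xrn1 libraries was left out, with log2 changes of 0.69 to 0.78, and when scaled to snoRNAs (0.57). ADR1 stood at 2.57 in both starved xrn1 libraries, against 2.22 and 2.02 in glucose, and SIP4 at 0.212 and 0.210, against 0.130 and 0.112. Neither passed: the change was 0.28 ± 0.12 for ADR1 (adjusted p = 0.314) and 0.79 ± 0.20 for SIP4 (adjusted p = 0.0515). SIP4 passed with a pseudocount 10 times larger (0.65). Few features passed in this strain, 2.80% up and 0.233% down, and the members that rose were 2 of 4. Scaled to protein-coding genes all 4 rose, ADR1 by 0.27 and SIP4 by 0.75, against 6.03% of features.

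In upf1 cells CAT8 stood at 0.119 and 0.104 reads per nucleotide in starved libraries, against 0.0176 and 0.0189 in glucose (log2 change 2.40 ± 0.16, adjusted p = 2.22e-07). HAP4 stood at 0.950 and 0.817, against 0.203 and 0.173 (2.21 ± 0.14, adjusted p = 1.37e-07). Both were far higher in the starved libraries. ADR1 stood at 0.752 and 0.710 in starved cells, against 0.627 and 0.491 in glucose (0.39 ± 0.12, adjusted p = 0.0116), a call that was lost without upf1 glucose replicate 2 (0.22) or upf1 starved replicate 1 (0.35), and when scaled to snoRNAs (0.22). SIP4 stood at 0.0258 and 0.0259 in starved upf1 libraries, against 0.0432 and 0.0271 in glucose, where the replicates differed widely. Its change of -0.36 ± 0.20 did not pass (adjusted p = 0.134), and without upf1 glucose replicate 2 it passed as a fall, at -0.67. In this strain 4.29% of features rose and 50.8% fell, and 3 of 4 members rose.

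**Figure D2:**
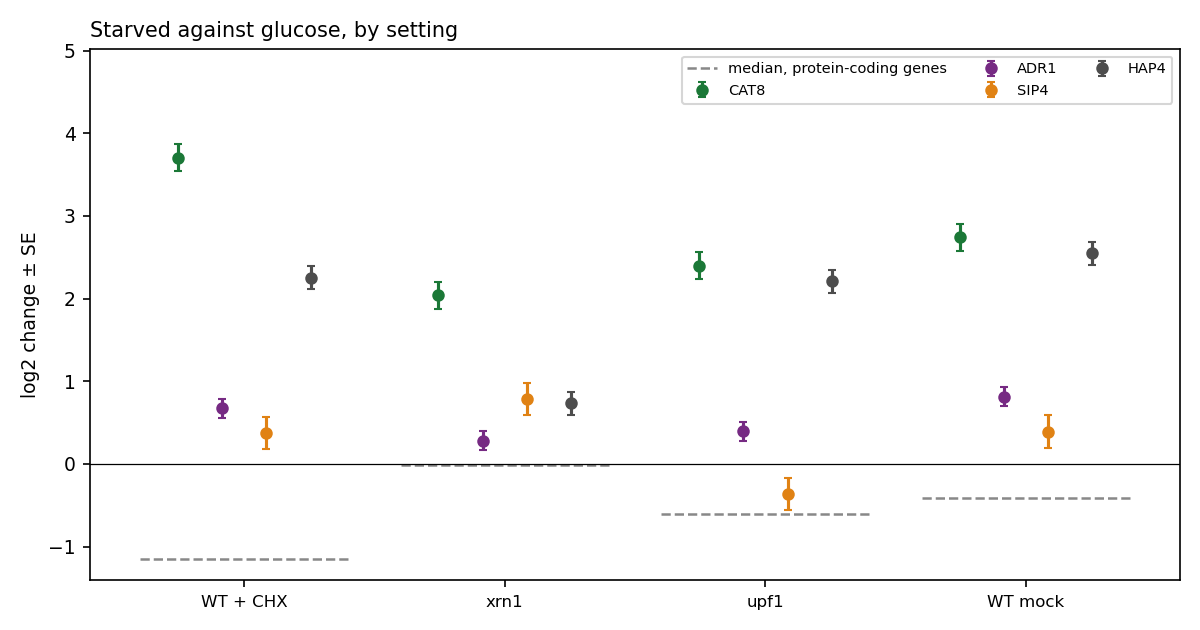
Log2 change of each activator mRNA, starved against glucose, in 4 settings (points, ± SE from limma), with the median of protein-coding genes as a dashed line. CAT8 ranges from 2.04 in xrn1 to 3.70 with cycloheximide, and HAP4 is lowest in xrn1, at 0.73.

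The differences between these responses were tested as interactions. The HAP4 response was smaller in xrn1 than in wild type by -1.82 ± 0.19 on the log2 scale (adjusted p = 5.34e-05), while 3.37% of features differed in this direction, 20.3% differed the other way, and the median protein-coding gene differed by 0.40. CAT8 also responded less in xrn1 (-0.70 ± 0.23, adjusted p = 0.0417), as did ADR1 (-0.53 ± 0.16, adjusted p = 0.0326). These last calls were fragile. The ADR1 call was lost on leaving out any library except wild-type starved replicate 2 (values -0.46 to -0.60 where lost). The ADR1 and CAT8 differences also missed the threshold when scaled to snoRNAs (-1.06 and -1.21). The CAT8 call was lost on leaving out any library except wild-type starved replicate 2 and xrn1 glucose replicate 2 (-0.50 to -0.78 where lost), and a pseudocount 10 times larger brought it to -0.15. It also missed the threshold, at the same -0.70, in the fit without the cycloheximide libraries. Scaled to protein-coding genes, by contrast, the differences were larger and passed for HAP4 (-2.20), CAT8 (-1.17) and ADR1 (-0.90). On that scale 1599 of 11599 features differed in this direction and 1497 the other way. SIP4 responded with a difference of 0.40 ± 0.28 between xrn1 and wild type, which did not pass (adjusted p = 0.348, 95% interval -0.20 to 1.00).

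With cycloheximide the CAT8 response was larger than in mock cells by 0.97 ± 0.23 (adjusted p = 0.00288), whereas 2.06% of features differed this way, 61.0% differed the other way, and the median protein-coding gene differed by -0.80. Scaled to snoRNAs the CAT8 difference was of similar size (0.91) but missed the threshold. ADR1 (-0.14 ± 0.16), SIP4 (-0.02 ± 0.28) and HAP4 (-0.30 ± 0.19) did not pass, and all 3 turned positive and passed when scaled to protein-coding genes (0.63, 0.73 and 0.46, where 16.9% of features passed upward). The HAP4 difference passed as a smaller response, at -0.53, without cycloheximide glucose replicate 2. Between upf1 and wild type 0 of the 4 responses differed past limma's adjusted threshold (2, ADR1 and SIP4, had an unadjusted p under 0.05), and the 95% intervals ran from -0.83 to 0.15 for CAT8, -0.77 to -0.06 for ADR1, -1.35 to -0.15 for SIP4 and -0.76 to 0.08 for HAP4 (4.91% of features differed). Without upf1 glucose replicate 2, ADR1 (-0.59) and SIP4 (-1.06) passed in this comparison, as they did when scaled to snoRNAs (-0.95 and -1.20).

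The next comparisons asked how the activator mRNAs differed without Xrn1, without Upf1 and with cycloheximide, from mock wild type in the same medium. Mock wild type was given DMSO, while no solvent is named for the mutants, so a part of the solvent cannot be told apart there. Without Xrn1 all 4 stood higher, as 90.6% of features did in glucose and 93.1% did in starved cells. The median protein-coding gene was higher by 2.06 and 2.39 in these comparisons, and the direction for several members depends on the scale. HAP4 in glucose was the member furthest above that median. On the deposited scale the xrn1 libraries in glucose, at 2.43 and 2.27 reads per nucleotide, stood above starved wild type (1.19 and 1.07). By rank of level within a library the order was the reverse. HAP4 lay at percentiles 77.5 to 78.1 in xrn1 in glucose, against 89.0 to 89.9 in starved wild type. The difference of xrn1 from wild type in glucose was 3.61 ± 0.14 (adjusted p = 9.02e-11). Among protein-coding genes HAP4 was at percentile 97 of their changes. SIP4 was higher by 2.59 ± 0.20 in glucose and 2.99 ± 0.20 in starved cells. CAT8 and ADR1 lay near the median in glucose (1.95 ± 0.16 and 2.03 ± 0.12) and below it in starved cells (1.25 ± 0.16 and 1.5 ± 0.12), as did HAP4 in starved cells (1.79 ± 0.14). Scaled to protein-coding genes the changes in starved cells turned negative and passed for CAT8 (-1.17), ADR1 (-0.93) and HAP4 (-0.64), as for 25.5% of features. On that scale HAP4 in glucose (1.55) and SIP4 in both media (0.70 each) still rose, and CAT8 and ADR1 in glucose lay at 0.0047 and -0.03 without passing (37.2% of features rose in glucose and 34.2% in starved cells).

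Without Upf1 the members went apart. CAT8 was lower in both media: in glucose the upf1 libraries stood at 0.0176 and 0.0189 reads per nucleotide, against 0.0281 and 0.0317 in wild type, and the change was -0.61 ± 0.16 (adjusted p = 0.00813). In starved cells CAT8 stood at 0.119 and 0.104 in upf1, against 0.253 and 0.192 in wild type, a change of -0.95 ± 0.16 (adjusted p = 0.000807) and percentile 0.637 among protein-coding genes. No upf1 library reached the wild-type libraries in the same medium. The call in glucose was lost without wild-type glucose replicate 2 (-0.54), with a pseudocount 10 times larger (-0.28) and when scaled to snoRNAs (-0.53). SIP4 was higher in upf1 cells in glucose, at 0.0432 and 0.0271, against 0.0153 and 0.0187 (0.88 ± 0.20, adjusted p = 0.00287), but not past the threshold in starved cells (0.13 ± 0.20, adjusted p = 0.65). The difference in glucose still passed, but was smaller, without upf1 glucose replicate 1 (0.58) and with the larger pseudocount (0.41). ADR1 and HAP4 did not pass in glucose (0.11 ± 0.12 and -0.01 ± 0.14) or in starved cells (-0.31 ± 0.12 and -0.35 ± 0.14, adjusted p = 0.0548 and 0.063). In starved cells both passed as lower in upf1 when scaled to protein-coding genes (-0.17 and -0.22) or snoRNAs (-0.75 and -0.80), and HAP4 passed in the fit without the cycloheximide libraries (-0.35). Of all features 32.0% rose and 9.97% fell in upf1 cells in glucose, and 19.1% and 15.9% in starved ones.

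With cycloheximide all 4 mRNAs were higher than in mock cells, as 91.3% of features were in glucose and 65.8% in starved cells. SIP4 stood out. In glucose it stood at 0.217 and 0.189 reads per nucleotide with the drug, against 0.0153 and 0.0187 without it, a log2 change of 3.32 ± 0.20 (adjusted p = 3.08e-09) where the median protein-coding gene changed by 2.05. In starved cells it stood at 0.279 and 0.247 with the drug, against 0.0256 and 0.0213 (3.30 ± 0.20, with a median of 1.31). SIP4 was at percentile 97.7 of the changes in glucose and 98.9 in starved cells. CAT8 changed by 1.71 ± 0.16 in glucose, below the median, but by 2.68 ± 0.16 in starved cells (adjusted p = 1.62e-08), at percentile 96.7. HAP4 changed by 1.89 ± 0.14 in glucose and 1.59 ± 0.14 in starved cells, and ADR1 by 1.21 ± 0.12 and 1.07 ± 0.12. Scaled to protein-coding genes SIP4 still rose (1.44 in glucose and 2.16 in starved cells), CAT8 (1.43) and HAP4 (0.34) rose in starved cells, and ADR1 fell in both (-0.82 and -0.19), on a scale where 31.9% of features rose and 24.9% fell in glucose and 30.9% rose and 31.5% fell in starved cells. In glucose CAT8 and HAP4 turned to -0.19 and -0.12 on that scale, without passing.

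**Figure D3:**
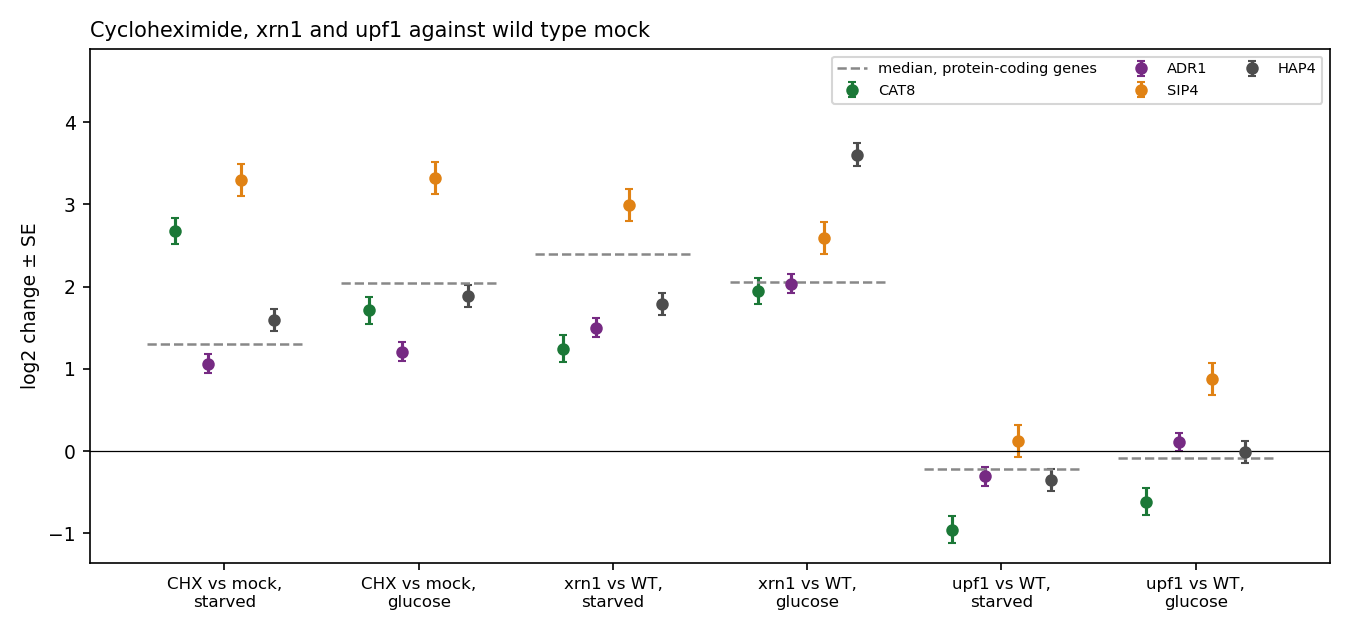
Log2 change of each activator mRNA with cycloheximide against mock, in xrn1 against wild type and in upf1 against wild type, for starved and glucose cells (points, ± SE from limma), with the median of protein-coding genes as a dashed line. HAP4 lies above the median in xrn1 in glucose (3.61), SIP4 lies above it with cycloheximide in both media (3.30 and 3.32), and CAT8 lies below it in both upf1 comparisons (-0.95 and -0.61).

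The rank of an mRNA within its own library does not depend on the scaling between libraries. CAT8 ranked at percentiles 83.3 to 84.0 of protein-coding genes in starved wild type with cycloheximide, 23.8 to 25.2 in starved xrn1, 34.7 to 37.5 in starved upf1 and 54.1 to 61.5 in starved mock wild type. In glucose it ranked between 5.57 and 9.84 in all 8 libraries. HAP4 ranked at 86.4 to 94.6 in the 8 starved libraries. In glucose it lay at 30.2 to 45.6 except in xrn1, where it lay at 77.5 to 78.1. ADR1 ranked at 78.5 to 88.4 in starved libraries and at 56.6 to 77.4 in glucose, with its lowest ranks in glucose with cycloheximide. SIP4 ranked between 7.18 and 10.5 in 14 libraries and at 30.4 to 31.0 in starved wild type with cycloheximide.

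**Figure D4:**
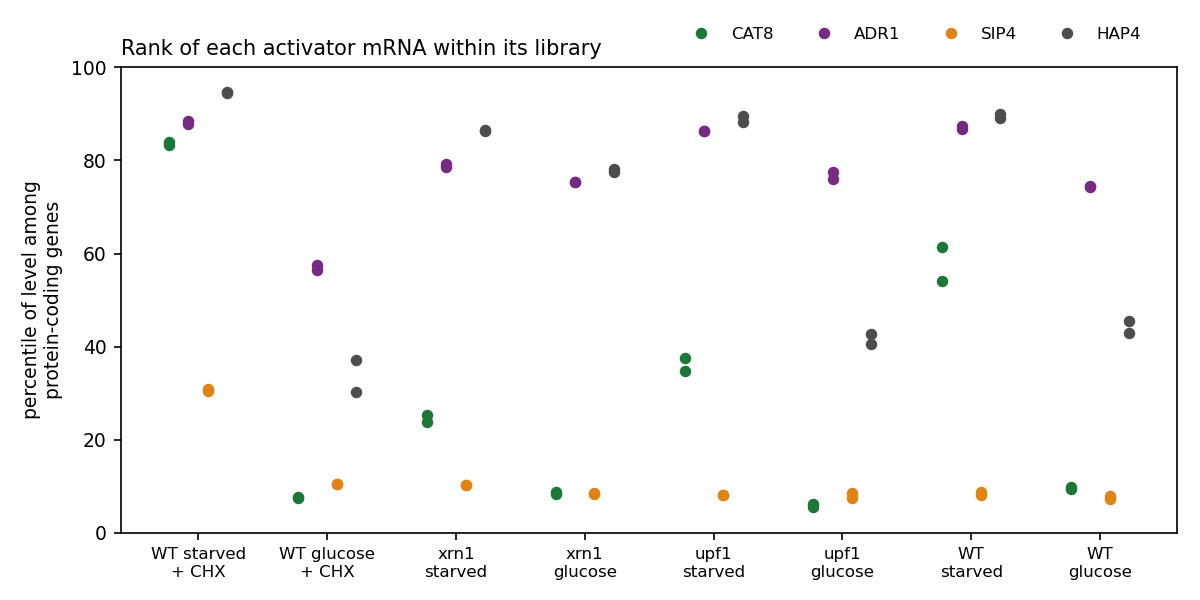
Percentile of each activator mRNA's level among all protein-coding genes of the same library, for 16 libraries in 8 groups. CAT8 ranges from 5.57 to 84.0, HAP4 in xrn1 in glucose lies at 77.5 to 78.1, and SIP4 is above 10.5 only in starved wild type with cycloheximide.

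The order of the groups differed between members. Group means of CAT8 spanned 78.2-fold, from 0.0182 reads per nucleotide in upf1 in glucose to 1.43 in starved wild type with cycloheximide. Its neighbours in that order overlapped for wild type in glucose with cycloheximide, starved upf1 and xrn1 in glucose (0.106, 0.112 and 0.126) and were apart elsewhere. HAP4 spanned 20.7-fold (0.188 to 3.91), with upf1 and wild type in glucose overlapping at the low end, starved upf1 (0.884) overlapping wild type in glucose with cycloheximide (0.720), and starved xrn1 at the top. SIP4 spanned 15.5-fold (0.0170 to 0.263). Its lowest groups were wild type in glucose (0.0170), starved wild type (0.0235), starved upf1 (0.0258) and upf1 in glucose (0.0351), and its range in glucose with cycloheximide (0.203) overlapped that in starved xrn1 (0.211). ADR1 spanned 5.0-fold (0.514 to 2.57), with upf1 (0.559) and wild type overlapping in glucose. The balance between members shifted as well. The HAP4 level per length was 1.24 to 1.25 times that of ADR1 in starved wild-type libraries, against 0.357 to 0.381 times in glucose, and it was 1.10 to 1.13 times in xrn1 in glucose. CAT8 exceeded SIP4 by 9.0 to 9.85 times in starved wild type, against 1.69 to 1.83 times in glucose, and lay below SIP4 in both upf1 libraries in glucose (0.407 and 0.697 times) and both libraries in glucose with cycloheximide (0.519 and 0.528 times).

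The target genes of the activators were read from lists of genes known to depend on them. Of 15 Adr1 targets 12 rose and 1 fell in starved wild type, with a median change of 2.54, and of 15 Cat8 and Sip4 targets 9 rose and 1 fell, with a median of 0.89. Of all 11599 features 1162 rose and 3887 fell. The lists share ACS1, ADY2 and JEN1. ADY2, an acetate transporter gene, changed most in both (4.86 ± 0.18), followed by JEN1, a lactate and pyruvate permease gene (4.39 ± 0.14). JEN1 averaged 0.791 ± 0.141 reads per nucleotide in starved wild type, against 0.0339 ± 0.000769 in glucose (SD, n = 2). The falls were MDH2, a malate dehydrogenase gene (-0.49 ± 0.09), and ATO3, a gene of the ADY2 family (-0.53 ± 0.09), and neither passed when scaled to protein-coding genes. FBP1 and PCK1, the key genes of gluconeogenesis, and ADH2, the ethanol-oxidising alcohol dehydrogenase gene, were picked after their values were seen. FBP1 averaged 0.0111 ± 0.00365 in starved wild type, against 0.0119 ± 0.00426 in glucose, and did not pass (-0.07, adjusted p = 0.859). PCK1 averaged 0.050 ± 0.00109 in starved cells, against 0.0238 ± 0.0079 in glucose, and rose by 0.99. ADH2 averaged 0.209 ± 0.0397 in starved cells, against 0.0325 ± 0.00358 in glucose, and rose by 2.54.

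In upf1 10 of 15 Adr1 targets rose and 1 fell (median 2.14), and 4 of 15 Cat8 and Sip4 targets rose and 4 fell (median -0.17), where 4.29% of all features rose and 50.8% fell. In xrn1 10 Adr1 targets (median 1.52) and 8 Cat8 and Sip4 targets (median 0.78) rose, against 2.80% of features. Under cycloheximide 13 Adr1 targets rose and 2 fell (median 2.59), and 11 Cat8 and Sip4 targets rose and 2 fell (median 0.90), where 6.99% of features rose and 73.7% fell. With libraries scaled to protein-coding genes the Adr1 list had 14 rises in upf1, 13 in xrn1 and 14, with 1 fall, under cycloheximide. The Cat8 and Sip4 list had 6 rises and 1 fall in upf1, 8 rises in xrn1 and 14 under cycloheximide. On that scale 18.0% of all features rose and 17.6% fell in upf1, 6.03% rose in xrn1, and 30.5% rose and 34.2% fell under cycloheximide. JEN1 changed by 6.03 and ADY2 by 6.19 under cycloheximide. The 38 respiratory genes listed as targets of the Hap2/3/4/5 complex had counts near those of all features in starved wild type: 3 rose and 11 fell, where 1162 rose and 3887 fell of 11599 features. Their median of -0.14 lay 0.27 above that of protein-coding genes. SDH1, a succinate dehydrogenase gene, rose (0.84 ± 0.14), as did CIT1, the mitochondrial citrate synthase gene (0.49 ± 0.13), and the largest falls were in ACO1, the aconitase gene (-1.31 ± 0.12), and ATP15, an ATP synthase gene (-0.73 ± 0.09). On the scale of protein-coding genes 22 of the 38 rose and 4 fell, where 24.8% of all features rose and 23.3% fell. In upf1 19 of the 38 fell (median -0.32), a share close to the 50.8% of all features that fell there, and on the scale of protein-coding genes 24 rose and 1 fell. In xrn1 3 rose (median 0.19), where 2.80% of all features rose, and 15 did on that scale, where 6.03% rose. With cycloheximide 14 rose and 9 fell (median 0.06), against 37 that rose and 1 that fell on that scale.

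**Figure D5:**
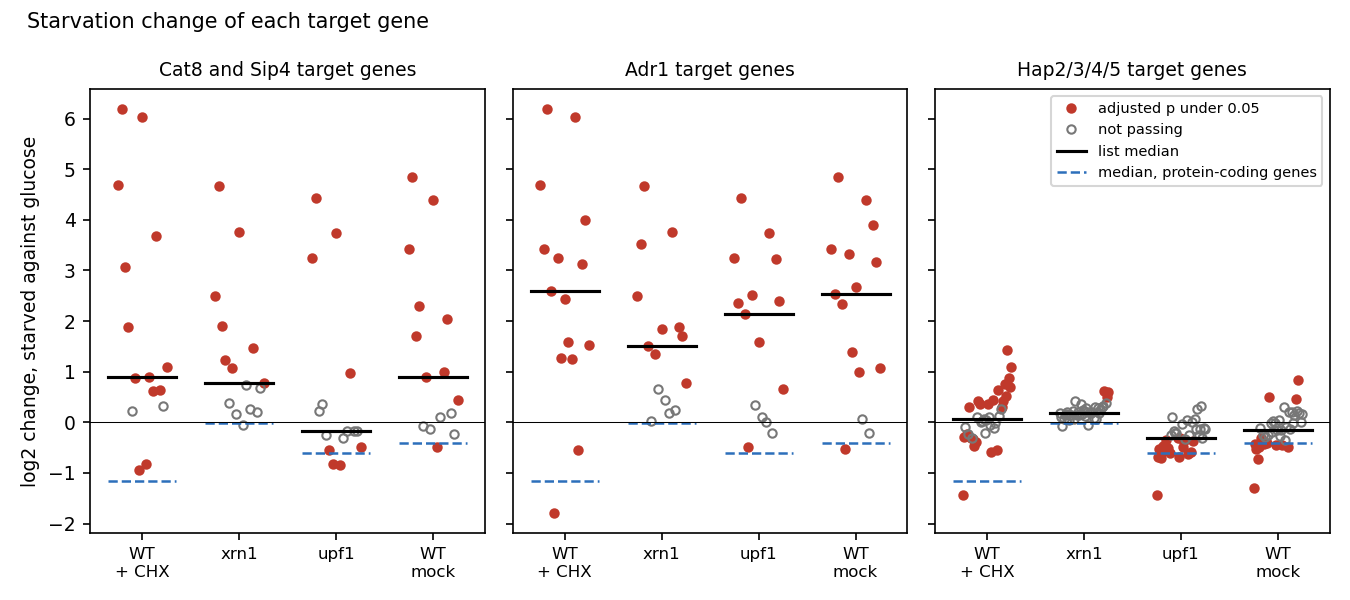
Log2 change, starved against glucose, of every gene on the target lists in 4 settings. Filled points passed an adjusted p of 0.05, bars are list medians and dashed lines the median of protein-coding genes. Adr1 targets have medians of 1.52 to 2.59, Cat8 and Sip4 targets -0.17 to 0.90, and Hap2/3/4/5 targets -0.32 to 0.19. Single Hap2/3/4/5 targets lie on both sides of 0.

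Changes of both signs were found among the partners and regulators of the activators. HAP2 (0.37 ± 0.14, adjusted p = 0.0553) and HAP5 (0.03 ± 0.21, adjusted p = 0.94), which encode DNA-binding subunits of the Hap complex, did not pass in starved wild type, and HAP3, the gene of the other one, fell (-0.70 ± 0.15, adjusted p = 0.00263). With libraries scaled to protein-coding genes HAP2 (0.73) and HAP5 (0.38) passed as rises, and HAP3 still fell (-0.35). HAP3 averaged 0.0778 ± 0.0106 reads per nucleotide in starved wild type, against 0.128 ± 0.00255 in glucose. Of 11 genes of the Snf1 kinase pathway 1 rose and 5 fell, among 11599 features of which 1162 rose and 3887 fell. On the scale of protein-coding genes 4 of the 11 rose and 2 fell, where 24.8% of all features rose and 23.3% fell. The rise was in SIP2, a beta subunit gene of the kinase complex (0.54 ± 0.16), and the largest falls were in ELM1 (-0.81 ± 0.16) and SAK1 (-0.71 ± 0.13), genes of kinases that activate Snf1. Among the glucose repressors MIG1 rose (1.40 ± 0.11), as did NRG1 (0.81 ± 0.15) and MIG3 (0.52 ± 0.15), MIG2 fell (-0.28 ± 0.11, adjusted p = 0.0496) and NRG2 did not pass (0.02 ± 0.13). Scaled to protein-coding genes MIG2 turned positive (0.08) and did not pass, and NRG2 passed as a rise (0.38). MIG1 averaged 0.670 ± 0.00642 in starved wild type, against 0.252 ± 0.00493 in glucose.

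Likeness of pattern was measured as Pearson correlation over the 8 group means, on log2 values after subtraction of each library's protein-coding median, among 5329 other protein-coding genes. Among the members CAT8 and HAP4 were most alike (r = 0.92), and ADR1 and SIP4 least (r = 0.30). All of these values come from the same 16 libraries, so they are a description. Nearest to CAT8 were UGX2 (r = 0.993), ALD4, a mitochondrial aldehyde dehydrogenase gene on the Adr1 list (0.992), and MRK1, a kinase gene (0.992). Nearest to HAP4 were RGI1, a gene induced in respiratory growth (0.991), GRE3, an aldose reductase gene (0.989), and MTH1, a regulator of hexose transporter genes (0.985). ADR1 was nearest to AGP1, an amino acid permease gene (0.988), YGL006W-A (0.984) and CEM1 (0.978), and SIP4 to SHC1 (0.979), GLG2, a glycogenin gene (0.970), and VLD1 (0.965). MRK1 averaged 0.370 ± 0.0329 reads per nucleotide in starved wild type, against 0.0183 ± 0.00436 in glucose, and RGI1 averaged 6.19 ± 0.590, against 0.260 ± 0.0197. The correlation does not weigh the size of changes, and other neighbours changed less. GRE3 averaged 1.79 ± 0.176 in starved wild type, against 1.07 ± 0.0662 in glucose. SHC1 averaged 0.0526 ± 0.00927, against 0.0533 ± 0.00255. No long noncoding RNA with a mean of at least 0.02 kept a constant ratio to a member (log2 SD under 0.1 over the 16 libraries).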

How the data were processed

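The deposited values are a coverage signal, normalized densities in reads per nucleotide, with a column for each of 16 libraries. The authors' 8 columns of group means were left out. The submitters' processing notes name Trim Galore, HISAT2 2.2.0, featureCounts 2.0.0, DESeq2 and build R64, without roles. The labels' protocols describe hot phenol extraction, ERCC spike-in RNA added to 1 µg of total RNA, depletion of rRNA and a stranded kit. How libraries were scaled to each other is not given in the sources used here. The median of ratios over the spike-ins was 1.0047 in all 16 libraries, so the deposited values are already level on the spike-ins.

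Here log2(value + 0.00369), the pseudocount being the 5th percentile of positive values, was fitted with limma 3.58.1 (R 4.3.3, empirical Bayes moderation with a mean trend) with 1 mean per group over 16 libraries and 11599 features with a mean at or above the pseudocount (8 residual and 4.43 prior degrees of freedom). Features passed at a Benjamini-Hochberg adjusted p under 0.05 over all features of a comparison. Fold changes are on this log2 scale, which understates changes of low genes. The fit was also run on simulated data in which only some features of starved wild type changed. Shifts of most features, as in xrn1 or with cycloheximide, were not simulated. Reads were estimated from the step between low values times ORF length. Only 69.8 to 77.5% of the 400 lowest ORFs per library came out whole within 0.03, and a count test was therefore not made. Scaling to protein-coding genes means division by the median of ratios over them.

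The members and the 7 gene lists (101 symbols, all matched) were chosen with earlier results of these data known. Named list genes were the 2 largest rises and falls that passed in starved wild type, and all of a list of 5 or fewer. Alternatives were the pseudocount, no filter, scaling to protein-coding genes, snoRNAs or spike-ins, the replicate number as a block, and leaving out each library, where the remaining one is assumed to vary like the other groups. Sites were read from the RefSeq R64 genome.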

Additional observations from a re-analysis of the deposited data

Results flagged for a closer look

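The starvation response differed between strains or treatments, by an interaction test in limma, for 4 results. For HAP4 it differed by -1.82 on the log2 scale between xrn1 and wild type, and the groups behind it did not overlap. For CAT8 and ADR1 it differed by -0.70 and -0.53 between the same strains. These 2 calls were fragile: they were lost on leaving out most single libraries and when scaled to snoRNAs. Of all features 3.37% differed in this direction between xrn1 and wild type. Scaled to protein-coding genes the CAT8 and ADR1 differences were larger and passed (-1.17 and -0.90). On that scale 1599 of 11599 features differed in this direction. For CAT8 it was larger with cycloheximide than in mock cells, by 0.97, a call that was lost when scaled to snoRNAs (2.06% of features differed this way). The CAT8 level lay at 1.46 and 1.39 reads per nucleotide in starved libraries with the drug, against 0.253 and 0.192 in starved mock libraries. The HAP4 level was already at 2.43 and 2.27 in xrn1 libraries in glucose, against 0.193 and 0.185 in wild type in glucose. The cycloheximide libraries carry another column prefix than the mock ones, and its part in the difference cannot be told apart from the drug's.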

How the results depend on the processing

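No filter and a pseudocount 10 times smaller left all 52 member changes on the same side of zero and of the threshold. Scaling to spike-ins could change nothing, because its factor was 1.0047 in every library and it only repeats the main fit. Scaled to protein-coding genes 13 of the 52 turned sign. These were SIP4 starvation in upf1 (0.17), CAT8, ADR1 and HAP4 with cycloheximide in glucose (-0.19, -0.82 and -0.12), ADR1 with cycloheximide in starved cells (-0.19), ADR1 in xrn1 in glucose (-0.027), CAT8, ADR1 and HAP4 in starved xrn1 (-1.17, -0.93 and -0.64), the SIP4 response in xrn1 against wild type (-0.00024), and the ADR1, SIP4 and HAP4 responses with cycloheximide against mock (0.63, 0.73 and 0.46). On that scale all 4 members passed upward for starvation in xrn1 (6.03% of features) and for the response with cycloheximide (16.9%). With cycloheximide in glucose SIP4 rose and ADR1 fell, where 31.9% of features rose and 24.9% fell. In xrn1 in glucose SIP4 and HAP4 rose, as 37.2% of features did. In starved upf1 CAT8, ADR1 and HAP4 were lower, as were 2005 of 11599 features. Scaled to snoRNAs, HAP4 in upf1 in glucose (0.075), SIP4 in starved upf1 (-0.26) and the SIP4 response in xrn1 (-0.074) turned sign. Calls lost on the snoRNA scale were HAP4 starvation in xrn1, ADR1 starvation in upf1, and CAT8 in upf1 in glucose. The CAT8 and ADR1 responses in xrn1 and the CAT8 response with cycloheximide (0.91) also missed the threshold. Calls gained were ADR1 and HAP4 in starved upf1, the ADR1 and SIP4 responses in upf1, and SIP4 starvation under cycloheximide. The share of all features that passed on the snoRNA scale was not computed. With a pseudocount 10 times larger, CAT8 no longer passed in upf1 in glucose, and SIP4 still did. The SIP4 response with cycloheximide turned to 0.16, and SIP4 starvation passed in xrn1 (0.65) and under cycloheximide (0.32). The fit without the cycloheximide libraries, chosen after the data were seen, passed 2 in starved upf1, CAT8 and HAP4. The cause of these shifts was not tested.

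Leaving out 1 library at a time, the members that passed numbered 1 for starvation in xrn1, 1 to 3 and 0 to 2 for the responses in xrn1 and upf1, 1 to 2 for the response with cycloheximide, and 1 to 2 in upf1 in glucose. The number for starvation in upf1 also depended on the library left out, where ADR1 changed by 0.22 to 0.57 and SIP4 by -0.67 to -0.058. Signs turned for HAP4 (-0.12 to 0.10) and ADR1 (-0.065 to 0.29) in upf1 in glucose and for the SIP4 response with cycloheximide (-0.14 to 0.097).

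Replicate numbers are shared between groups, but the labels tie them to nothing else: the correlation of same-numbered deviations over 28 pairs of groups ranged from -0.095 to 0.15, with 4 over 0.1. With the replicate number as a block, 3 members passed in starved upf1, ADR1 (-0.31) and HAP4 (-0.35) in addition to CAT8, and SIP4 passed for starvation in xrn1 (0.79).

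SIP4 rests on as few as 111 estimated reads, and 2 libraries per group limit every test.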

Other observations

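Other regulators of carbon and stress genes were read from a list of 17. In starved wild type 6 of them rose and 5 fell, and their median change was 0.07, against -0.42 for protein-coding genes. Of all 11599 features 1162 rose and 3887 fell. On the scale of protein-coding genes 10 of the 17 rose and 3 fell, where 24.8% of all features rose and 23.3% fell. USV1, a stress-responsive zinc finger gene, rose by 3.54 ± 0.17 and MTH1 by 3.49 ± 0.14, both more than CAT8. The largest falls were in ERT1, a zinc cluster gene linked to gluconeogenesis (-0.77 ± 0.19), and RPH1, a histone demethylase gene (-0.68 ± 0.11). In xrn1 2 rose, where 2.80% of all features rose.

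NRG2, the gene of a glucose repressor, averaged 0.252 ± 0.0147 reads per nucleotide in starved wild type with cycloheximide, against 3.29 ± 0.413 in glucose with cycloheximide (SD, n = 2). The log2 change with the drug was -3.68 ± 0.13 (SE), where the median protein-coding gene changed by -1.16 and 73.7% of features fell. Scaled to protein-coding genes the change was -2.54, where 34.2% of features fell. In mock cells NRG2 averaged 0.163 ± 0.0185 starved, against 0.160 ± 0.0137 in glucose.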
